A study of Mus musculus with 4 samples.

Results

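Uaca, Gria2, Col20a1, L1cam, Acrbp and Xylb, genes known from other tissues, were described in double-positive thymocytes of a conditional Srsf1 knockout. They are 6 of the 53715 genes in the deposited tables and were listed by symbol because they were low in wild-type (WT) cells, more than doubled in knockout (KO) cells and are known mainly from brain, connective tissue, testis or liver. The rise in KO is therefore what chose them, and it is given below as a description with no test. All of them passed the filter on low counts. The libraries were made from CD4+CD8+ cells sorted from the thymus of C57BL/6 mice of 6 to 8 weeks, with 2 WT libraries and 2 KO libraries. The KO genotype is LCKCre/+ Srsf1fl/fl, in which a Cre recombinase driven by the T-lineage promoter Lck removes floxed Srsf1, whereas the WT mice are labelled WT only and whether they carried Cre or floxed alleles is not given in the sources used here. The labels do not state whether each replicate is a different mouse, so every test measures only the spread between these libraries, which may be technical.

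Double-positive thymocytes rearrange the T cell receptor alpha chain and are selected on self peptide. Like other differentiated cells they keep most genes of neurons, muscle, germ cells and liver silent or at trace level, through DNA methylation, repressive chromatin and repressors such as REST, a zinc finger protein that holds neural genes down outside the nervous system. Srsf1 encodes an SR protein that acts in splice site choice. Among the 6 genes, Gria2 encodes a subunit of AMPA-type glutamate receptors that makes the channel nearly impermeable to calcium, and L1cam encodes an immunoglobulin superfamily adhesion protein of growing axons. Col20a1 encodes a collagen chain of the FACIT class, which binds to the surface of collagen fibrils. Acrbp encodes the protein that binds proacrosin in the sperm acrosome, Xylb encodes xylulokinase, which phosphorylates xylulose, and Uaca encodes a protein with ankyrin repeats and coiled coils that has been linked to the Apaf1 apoptosome.

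The libraries held 35862730 to 37033180 counts each. Levels are given as CPM (the count per 1e+06 counts of the library), in which a single count came to 0.027 to 0.0279. Srsf1 had 4821 and 4485 counts in WT and 1839 and 1772 in KO, a KO to WT ratio of 0.382 in mean CPM, and which part of the gene is floxed is not given in the sources used here. Of 16588 genes tested with the edgeR quasi-likelihood test, 6.63% were called higher and 7.89% lower in KO at an adjusted p under 0.05, and the median log2 difference of all tested genes was 0.0022. The 15 markers of the labelled cell type summed to 15991.6 and 15268.5 CPM in WT and to 20892 and 20563.3 CPM in KO, with 8 members called higher and 0 lower by edgeR (0 lower at an unadjusted p under 0.05 and 0 by DESeq2).

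The sequence just before the annotated start is shown for the 3 genes whose window holds none of their own exons, out of 5 windows compared for motifs. The Col20a1 window lies inside the overlapping transcript RP23-397H18.5. Each line gives the 250 bases before the RefSeq start on GRCm38.p6, written 5′ to 3′ on the gene's strand. Capitals mark any match, on either strand, to GGGCGG (a GC box), CCAAT (the box bound by NF-Y), TATAAA (the TATA box), TGACG (the core of a cAMP response element) or GGACAG (the right part of the RE1 element that REST binds).
Uaca, chr9:60794192-60794441, plus strand: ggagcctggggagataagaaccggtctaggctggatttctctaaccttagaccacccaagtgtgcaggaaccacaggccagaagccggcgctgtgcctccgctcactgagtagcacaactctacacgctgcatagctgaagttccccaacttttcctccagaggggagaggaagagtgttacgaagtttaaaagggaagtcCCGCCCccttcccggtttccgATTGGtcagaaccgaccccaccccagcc
Gria2, chr3:80802836-80803085, minus strand: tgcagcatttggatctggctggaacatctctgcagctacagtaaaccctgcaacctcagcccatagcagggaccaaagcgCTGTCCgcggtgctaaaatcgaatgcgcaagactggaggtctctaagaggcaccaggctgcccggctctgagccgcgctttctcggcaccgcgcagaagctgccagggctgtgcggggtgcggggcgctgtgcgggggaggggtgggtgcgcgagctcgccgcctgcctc
Col20a1, chr2:180986285-180986534, plus strand: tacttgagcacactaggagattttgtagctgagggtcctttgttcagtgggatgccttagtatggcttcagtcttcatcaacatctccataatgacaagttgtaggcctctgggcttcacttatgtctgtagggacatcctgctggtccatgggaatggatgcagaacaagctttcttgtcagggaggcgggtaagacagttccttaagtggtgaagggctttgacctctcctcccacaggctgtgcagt

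The windows differ in base composition. Those of Gria2 and L1cam had 64.8% and 69.6% G or C with 19 and 20 CpG pairs, above 82.3% and 90.2% of the 32851 RefSeq windows of that length in G and C content. Uaca (56.8% and 10 CpG pairs) and Acrbp (55.6% and 11) lay nearer the median window, which had 52.4% and 6. Col20a1 stood at the other end with 49.2% and 1 CpG pair, and 7.87% of all windows had fewer CpG pairs. A GC box was found in the windows of Uaca, L1cam and Acrbp and in 32.7% of all windows, although 238 of the 250 bases of the Acrbp window and 44 of the L1cam window are annotated exon of the gene itself. CCAAT was found in that of Uaca and in 33.8% of all. TGACG was found in that of Acrbp and 17.8% of all, and GGACAG in that of Gria2 and 18.7% of all. TATAAA was in no member window and in 12.4% of all. The consensus of the complete RE1 element was in 1 of the 32851 windows and its left part CAGCACC in 5.73%, and neither was in any of the 5 member windows. The Runx core TGTGGT was in the window of Uaca and in 14% of all. The full cAMP response element TGACGTCA (1.55% of all) and the E boxes CACGTG (6.02%), CAGCTG (13%) and CACCTG (17.2%) were in no member window. Both strands were searched, and TGACG lies within the full cAMP response element as GGACAG and CAGCACC lie within RE1. Of the 12 motifs none was in more than 3 of the 5 windows. Only exact matches were counted, so a missing match says only that these letters are not in this stretch. Around its match to the right part of RE1, the Gria2 window follows the complete RE1 consensus at most fixed positions, with the same spacing. It was not counted because a few bases differ, which also breaks the match to the left part. How often windows hold such near matches, and whether REST binds there, was not tested.

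Gria2 (ENSMUSG00000033981.14, chr3:80681450-80802835, minus strand, GRCm38) was read 60 and 220 times in WT cells and 475 and 854 times in KO cells. In CPM these were 1.67 and 6.02 in WT and 12.8 and 23.5 in KO. Both KO libraries stood above both WT libraries, but the libraries of a group also stood far apart. The group means were 3.85 ± 3.08 CPM in WT and 18.1 ± 7.52 CPM in KO (SD, n = 2), a ratio of 4.71. WT replicate 2 had 3.6 times the Gria2 level of WT replicate 1, with a 95% exact Clopper-Pearson interval of 2.7 to 4.87, and KO replicate 2 had 1.83 times that of KO replicate 1 (1.63 to 2.05). These intervals cover counting error only, since reads without molecular identifiers are not independent molecules. Replicate 2 was thus the higher library in each group. The log2 difference was 2.24 in the fit of all 4 libraries 3.44 without WT replicate 2, 1.60 without WT replicate 1, 2.63 without KO replicate 1 and 1.74 without KO replicate 2.

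L1cam (ENSMUSG00000031391.18, chrX:73853778-73896105, minus strand) was the most evenly measured of the 6 in KO. It had 292 and 217 counts in WT and 892 and 866 in KO, or 8.14 and 5.94 CPM against 24.1 and 23.8 CPM. The means were 7.04 ± 1.56 and 23.9 ± 0.204 CPM (SD, n = 2), a ratio of 3.4 and a log2 difference of 1.77. The 2 KO libraries differed by a factor of 1.01, with an interval of 0.921 to 1.11 that spans no difference, whereas the WT libraries differed by a factor of 1.37 (1.15 to 1.64).

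Col20a1 (ENSMUSG00000016356.18, chr2:180986535-181018363, plus strand) had 188 and 90 counts in WT and 721 and 503 in KO. The levels were 5.24 and 2.46 CPM in WT and 19.5 and 13.8 CPM in KO, with means of 3.85 ± 1.96 and 16.6 ± 3.99 CPM (SD, n = 2). Here replicate 1 was the higher library in each group, the reverse of Gria2, by a factor of 2.13 in WT (1.65 to 2.77) and 1.41 in KO (1.26 to 1.58). The KO mean was 4.32 times the WT mean, a log2 difference of 2.11, which was 2.76 without WT replicate 1 and 1.67 without WT replicate 2.

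Acrbp (ENSMUSG00000072770.9, chr6:125049689-125063267, plus strand) had 140 and 196 counts in WT and 516 and 544 in KO, or 3.9 and 5.37 CPM against 13.9 and 14.9 CPM. The means were 4.64 ± 1.04 and 14.4 ± 0.718 CPM (SD, n = 2), a ratio of 3.12. The KO libraries differed by less than counting error allows to be seen, by a factor of 1.07 (0.949 to 1.21).

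Xylb (ENSMUSG00000035769.9, chr9:119357381-119393797, plus strand) had the smallest ratio of the 6, at 2.97. It had 71 and 119 counts in WT and 319 and 252 in KO, with means of 2.62 ± 0.904 and 7.77 ± 1.19 CPM (SD, n = 2). Its WT libraries differed by a factor of 1.65 (1.22 to 2.24).

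Uaca (ENSMUSG00000034485.10, chr9:60794542-60880370, plus strand) had the largest ratio, at 5.56. It had 56 and 71 counts in WT, 2 libraries that did not differ beyond counting error (factor 1.25, interval 0.865 to 1.8), and 444 and 273 counts in KO, which did (1.6, 1.37 to 1.87). The means were 1.75 ± 0.271 and 9.75 ± 3.17 CPM (SD, n = 2). On log2 of the deposited RPKM plus 0.5, which compresses low values, the log2 difference of Uaca was 1.42 in place of 2.47, and that of Gria2 was 1.15.

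**Figure D1:**
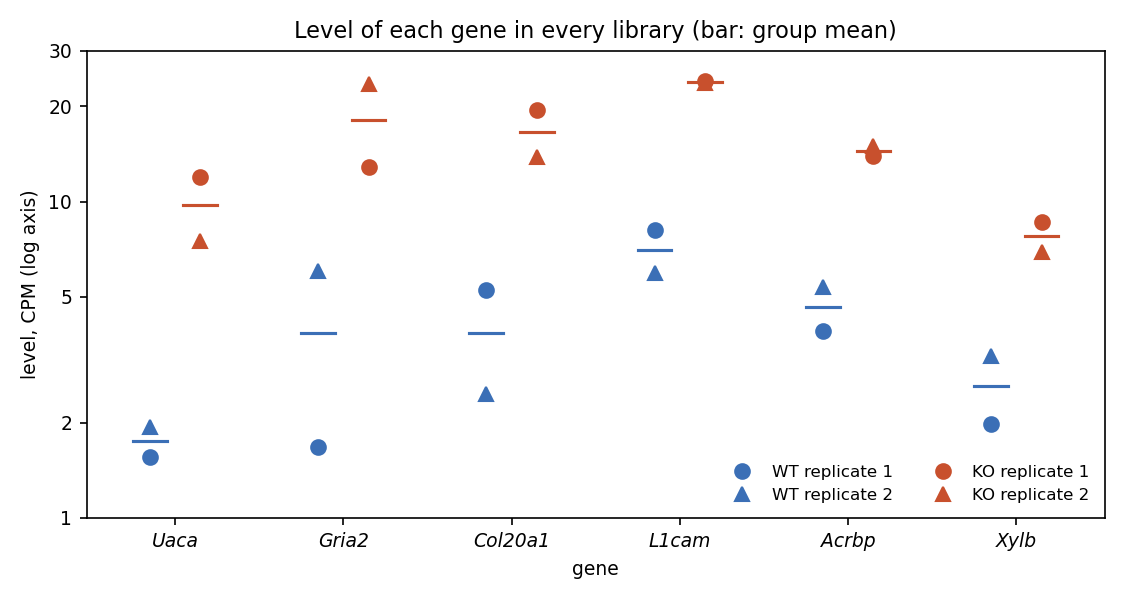
Level of the 6 genes in CPM on a log axis, 1 point per library (blue WT, red KO, circles replicate 1, triangles replicate 2), with bars at the group means. Both KO points lie above both WT points for each gene, and the points of a group lie farthest apart for WT Gria2 (1.67 and 6.02 CPM).

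Both KO libraries stood above both WT libraries in 6 of 6 genes, against 27.8% of all tested genes, and since this rise chose the members nothing is read from that count. Replicate spread did not enter the choice directly. A band of 2096 tested genes had a mean over all 4 libraries between 5.19 and 15.5 CPM, the range of the 6 genes. In that band the median factor between the WT libraries was 1.22 and its 90th percentile was 1.6. In WT all 6 genes lay above that median, and 3 of them (Gria2, Col20a1 and Xylb) lay beyond that percentile. In KO the median factor was 1.2, and 4 of the 6 lay above it, with Gria2 alone beyond the 90th percentile of 1.61. The band was not matched on the WT level, and the WT means of the 6 genes ran only from 1.75 to 7.04 CPM. A low WT level was part of the rule, and fewer counts give a wider spread, so nothing is read from the WT comparison.

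Per base of transcript the order of the genes was the same in both groups. As RPKM (CPM per kilobase of gene length), the WT means ran from Acrbp at 1.41 through L1cam (0.959), Col20a1 (0.749), Xylb (0.638) and Uaca (0.302) to Gria2 at 0.248. The KO means were 4.41, 3.26, 3.24, 1.89, 1.68 and 1.17 in the same order. In WT, Acrbp (1.19 and 1.64) stood clear of L1cam (1.11 and 0.809), and Xylb (0.482 and 0.794) stood clear of Uaca (0.269 and 0.335), while the libraries of the other neighbours in that order overlapped. In KO only Acrbp (4.25 and 4.56) and, below Col20a1 (3.79 and 2.69), Xylb (2.1 and 1.69) stood clear of the gene next above or below. L1cam (3.28 and 3.24) overlapped Col20a1, and Uaca (2.06 and 1.29) overlapped both Xylb and Gria2 (0.825 and 1.51). The listed length of Gria2, 15548 bases over all annotated exons, was the longest of the 6, which lowers its RPKM relative to its CPM. The WT means lay above 12.2% (Gria2) to 35% (Acrbp) of all tested genes and the KO means above 33.2% to 54.3%, so the raised level was still near or below that of the median tested gene. All 6 genes together took 0.00907% of the counts of the KO libraries.

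The doubling itself was not a sharp edge. Among tested genes with a WT mean no higher than that of L1cam and an overall mean no lower than that of Xylb there were 589, of which 60 more than doubled, the 6 among them. Genes with the lowest WT means enter this range only through a high KO level. The range itself thus raises the share that doubled, and nothing is read from that share. Of the 60, 41 were protein-coding. Those outside the 6 were not sorted by tissue, so the 6 need not be all the genes of that kind. Of the genes with an established symbol, Btbd19 (5.44 CPM in WT and 10.9 in KO) lay just inside the doubling and Mdk (5.28 and 10.5 CPM) just outside it. Across all tested genes 6.17% more than doubled.

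**Figure D2:**
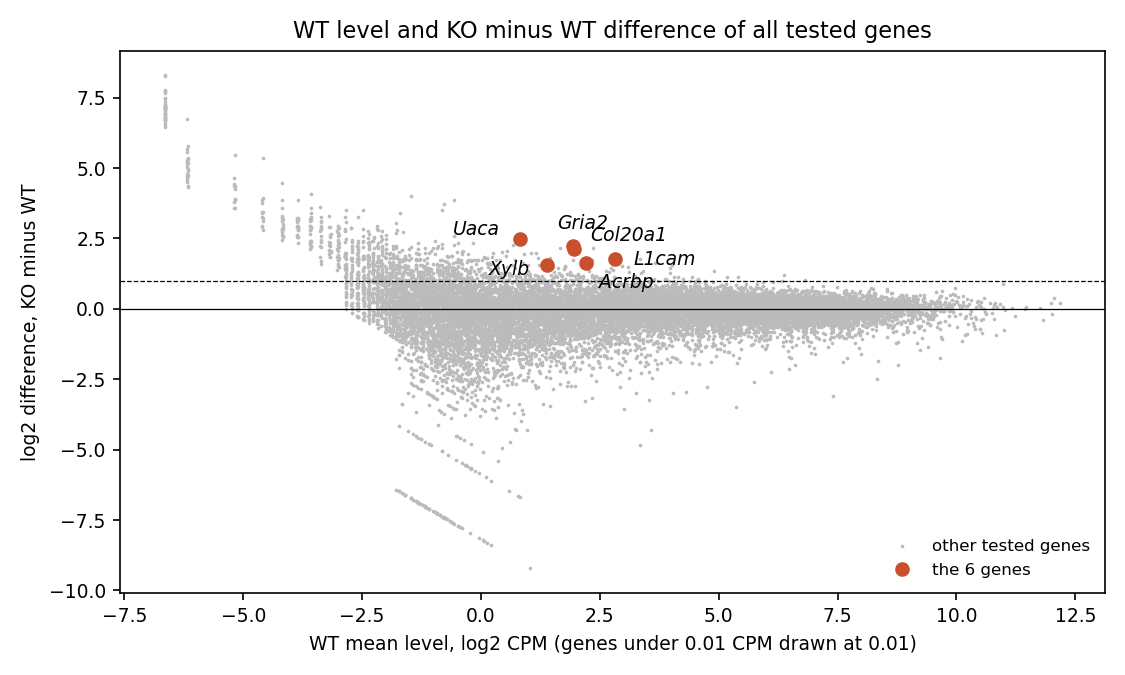
The log2 difference (KO minus WT) of each tested gene against its WT mean level in log2 CPM, with the 6 genes in red and a dashed line at a doubling. The 6 sit between 1.75 and 7.04 CPM in WT and between 1.57 and 2.47 log2 units. The steep stripes at low levels are genes with 0 or few counts in 1 group.

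The relatives of the 6 genes were not used in the choice of the 6, but their lists were drawn up with earlier results of these data known. Of 214 related genes in 8 lists, 104 were tested by edgeR, 9 were called higher (8.65%, against 6.63% of all tested genes) and 8 lower (7.69%, against 7.89%). Their median log2 difference was 0.11, beside 0.0022 for all genes. Of the 104, 9 more than doubled in mean CPM, beside 6.17% of all tested genes. By list, the share called higher ran from 0% in 4 lists to 15.8% of the xylulose and pentose phosphate list and 30.8% of the REST repressor list. The number called lower was 5 without WT replicate 1 and 4 without WT replicate 2.

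For Gria2 the list held the other AMPA subunits, their auxiliary and trafficking partners and the kainate, NMDA, delta and metabotropic receptors. Of 44 genes 17 were tested, 0 were called higher and 2 lower, with a median log2 difference of -0.03. The share called lower was 11.8%, beside 7.89% of all tested genes. An unadjusted p under 0.05 was reached by 1 gene in the upward direction, and DESeq2 called 1 higher, namely Grm6, a metabotropic receptor gene picked here after its values were seen (86 and 80 counts in WT, 214 and 168 in KO, edgeR adjusted p = 0.0644). Those that fell were Grik5, a kainate receptor subunit, with 591 and 424 counts in WT and 172 and 252 in KO (log2 difference -1.28, SE 0.29, edgeR adjusted p = 0.0113), and Grin3a, an NMDA receptor subunit, with 267 and 262 counts against 132 and 125 (-1.06, SE 0.32, 0.0446). The Grin3a call was lost without any 1 of the 4 libraries (adjusted p from 0.104 to 0.11). The closest relatives of Gria2 were named for that reason, outside the naming rule. Gria1 and Gria4 had 0 counts in all libraries, and Gria3 had 81 and 77 counts in WT and 123 and 146 in KO (0.75, SE 0.44, 0.306). Dlg4 and Dlg1, scaffold genes that were the most abundant of the list per base, had log2 differences of -0.08 each and were not called. KO cells thus held Gria2 counts of 475 and 854 beside at most 146 of any other AMPA subunit. Per base the gap was narrower, with Gria2 at 0.825 and 1.51 RPKM in KO and the shorter Gria3 at 0.337 and 0.407.

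L1cam moved against its nearest relative. Chl1, which encodes the close homologue of L1 and guides axons as well, fell from 246 and 330 counts in WT to 100 and 103 in KO (log2 difference -1.52, SE 0.34, edgeR adjusted p = 0.00984). Ncam1, another neural adhesion gene that natural killer cells also express, fell from 121 and 161 to 51 and 27 counts (-1.87, SE 0.52, 0.0303). Nrcam had 0 counts in both WT libraries and 18 and 14 in KO, and Nfasc had 0 throughout. Ezr, which encodes the membrane-to-actin linker ezrin and was the most abundant of this list per base, rose from 36579 and 37199 to 46168 and 43424 counts (0.26, SE 0.06, 0.0117). The integrin chain gene Itgb1, next in abundance, was not called (0.10, SE 0.08). In all, 1 of 10 tested genes rose and 2 fell, with a median of 0.10. These are 10% and 20%, beside 6.63% and 7.89% of all tested genes. Without WT replicate 2 none of the 3 was called (adjusted p = 0.0593 for Chl1, 0.147 for Ncam1 and 0.0824 for Ezr), and the Ncam1 call was also lost without KO replicate 2 (0.0947).

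Among 53 other collagen chains and collagen-folding enzymes, 22 were tested, 0 were called higher and 2 lower, with a median of 0.15. The share called lower was 9.09%, beside 7.89% of all tested genes. In mean CPM 4 of the 22 more than doubled in KO, beside 6.17% of all tested genes. At an unadjusted p under 0.05 there were 2 in the upward direction, and DESeq2 called 0. Col11a2, a fibrillar collagen chain gene of cartilage, fell from 1383 and 1227 counts to 590 and 658 (log2 difference -1.08, SE 0.17, edgeR adjusted p = 0.00105). Col27a1, another fibrillar chain gene, fell by less (-0.40, SE 0.12, 0.0482), which did not pass the test once WT replicate 1 (0.0684), WT replicate 2 (0.263) or KO replicate 1 (0.161) was left out. The 8 other FACIT chain genes had at most 257 counts in any library and none was called. The most abundant genes of the list per base, P4hb and P4ha1, encode the subunits of prolyl hydroxylase and were not called (0.12 and -0.41, adjusted p = 0.349 and 0.0776). The P4ha1 difference was called without KO replicate 2 (0.0404) and with a filter of 1 CPM (0.0493).

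Few acrosome and spermatid genes had counts enough to be tested. Of 28 genes 11 had no count in any library and 5 were tested, with 0 called in either direction by edgeR, by DESeq2 or at an unadjusted p under 0.05, and a median of 0.26. Acr, which encodes the proacrosin that the Acrbp protein binds, had 0 counts throughout. Gopc, a Golgi gene needed for acrosome formation and the most abundant of the list per base, had 807 and 731 counts in WT and 961 and 933 in KO (log2 difference 0.28, SE 0.17, adjusted p = 0.314). Prm1, which encodes a protamine of sperm chromatin, had 16 and 19 counts in WT and 56 and 40 in KO (1.43, SE 0.85, 0.314).

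Xylb sits between the glucuronate-xylulose and the pentose phosphate pathways, and 3 of 19 tested enzymes and regulators there rose while 0 fell by edgeR. The share called higher was 15.8%, beside 6.63% of all tested genes. DESeq2 called 4 higher and 1 lower, and 8 were higher and 1 lower at an unadjusted p under 0.05, the lower one being Mlxip in both. Of the 19, 73.7% had a log2 difference above 0, beside 50.2% of all tested genes, and the median was 0.25. Akr1a1, an aldehyde reductase gene of glucuronate metabolism, rose from 6295 and 6226 counts to 8801 and 7899 (log2 difference 0.40, SE 0.08, edgeR adjusted p = 0.00516). Taldo1, the transaldolase gene, rose from 4733 and 4744 to 5881 and 5832 counts (0.29, SE 0.08, 0.0282). Tkt, the gene of transketolase, which uses xylulose 5-phosphate, rose from 4001 and 4145 to 6074 and 4519 (0.36, SE 0.11, 0.0493). The Tkt call was lost without KO replicate 1 (0.362), with DESeq2 size factors (0.0509) and with library size only (0.054), and the Taldo1 call without WT replicate 1 (0.0967) or WT replicate 2 (0.121). Akr1a1 and Taldo1 were also the most abundant of the list per base. Dcxr, the gene of a reductase that acts on xylulose, was named for that step after its values were seen. It had only 28 and 14 counts in WT and 13 and 13 in KO.

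Beside Uaca, 1 of 11 tested apoptosome and related genes rose and 1 fell, with a median of 0.13. Each is 9.09% of the list, near the 6.63% and 7.89% of all tested genes called higher and lower. Xiap, a caspase inhibitor gene, rose (log2 difference 0.35, SE 0.09, edgeR adjusted p = 0.0233). The Xiap call was lost without WT replicate 1 (0.0859) or KO replicate 2 (0.0778), and without either of these libraries 0 genes of the list were called lower. Cycs, the gene of cytochrome c and among the 2 most abundant of the list per base, was not called (0.13, SE 0.14).

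REST itself was slightly lower in KO. Rest fell from 6768 and 6585 counts to 5601 and 5098 (log2 difference -0.34, SE 0.08, edgeR adjusted p = 0.0135), but leaving out WT replicate 1 ended that call (0.092). Of its 12 listed corepressors, 4 rose and 8 were not called, while 6.63% of all tested genes were called higher. Kdm1a, a histone demethylase gene, rose by 0.45 (SE 0.08, 0.00231), the deacetylase gene Hdac1 by 0.46 (SE 0.08, 0.0024) and the phosphatase gene Ctdsp1 by 0.39 (SE 0.10, 0.0166). Rcor3, named after its values were seen, rose by 0.77 (SE 0.20, 0.025). The Ctdsp1 call was lost without WT replicate 2 (0.0851) and the Rcor3 call without WT replicate 1 (0.0989) or KO replicate 2 (0.134). Ehmt2, a histone methyltransferase gene and the most abundant of the list per base, was not called (0.22, SE 0.09, 0.124), but was called without WT replicate 1 (0.0203). The 6 were kept out of the related lists, so what follows does not say whether any of them is a REST target. Neural genes listed as known REST targets were not called. Of 20, 7 were tested and 0 called in either direction by edgeR, by DESeq2 or at an unadjusted p under 0.05, and the median was -0.46. None of the 7 had a log2 difference above 0, beside 50.2% of all tested genes. The most abundant per base were the neurofilament gene Nefh (383 and 360 counts in WT, 216 and 322 in KO) and the nicotinic receptor gene Chrnb2 (297 and 268 against 263 and 229).

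**Figure D3:**
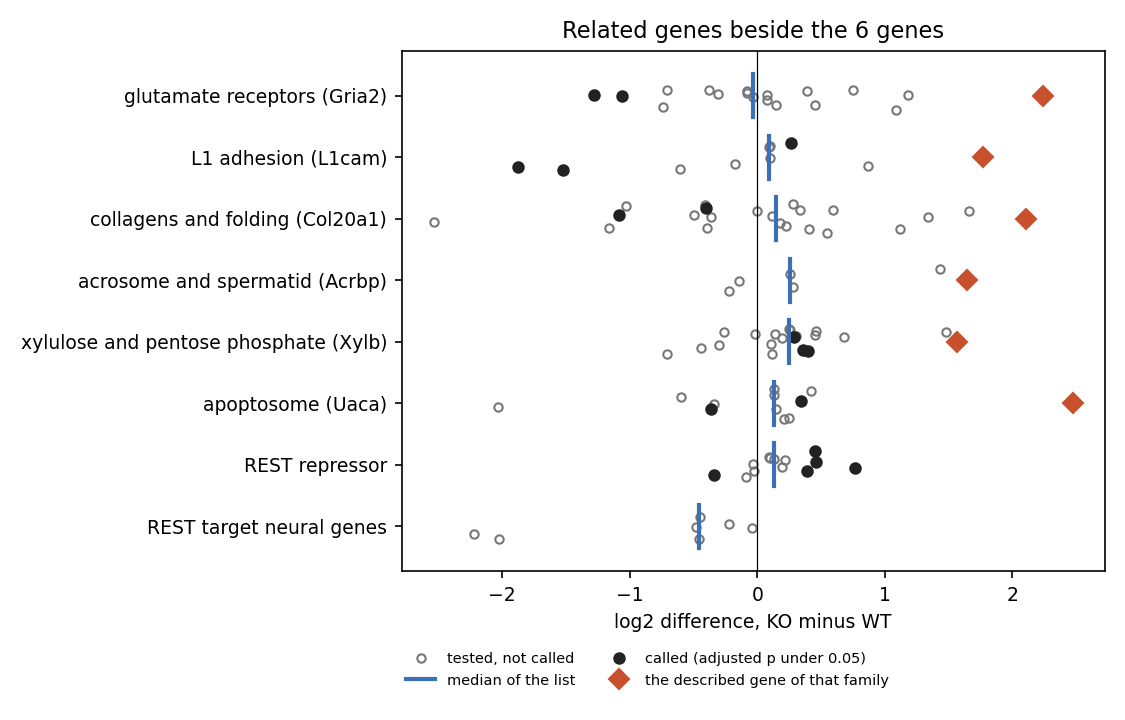
The log2 difference (KO minus WT) of each tested related gene, by list, with called genes filled, the list median as a blue bar and the described gene of that family as a red diamond. The list medians lie between -0.46 and 0.26, while the diamonds lie between 1.57 and 2.47. Nrcam and Col12a1, with 0 counts in both WT libraries, enter the medians but are not drawn.

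Genes that lie beside the 6 on the chromosome were mostly not called. Within 100 kb of any of the 6 there were 55 other annotated genes, of which 31 were tested, 2 were called higher and 0 lower, beside 14.5% of all tested genes called in either direction. At an unadjusted p under 0.05 there were 4 higher and 2 lower, and DESeq2 called 2 higher and 0 lower. Their median log2 difference was 0.01. Hcfc1, a transcriptional coregulator gene 46.7 kb before L1cam, rose (0.34, SE 0.07, edgeR adjusted p = 0.0051), and Chd4, a chromatin remodeller gene 32.7 kb after Acrbp, rose (0.25, SE 0.07, 0.0233), the latter call being lost without WT replicate 2 (0.201). No gene within 100 kb of Uaca or Gria2 was tested.

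Some neighbours overlap the 6 genes, and reads on shared exon bases of the same strand cannot be told apart. For genes on opposite strands the same holds unless counting used the strand, which is not given in the sources used here. The transcript RP23-397H18.5 runs on the strand of Col20a1 across its start and shares 79 exon bases with it. It had 570 and 546 counts in WT and 763 and 882 in KO (log2 difference 0.54, SE 0.19, edgeR adjusted p = 0.0741), more than Col20a1 in every library. Arhgap4, a gene of blood cells that encodes a GTPase-activating protein, shares 100 exon bases with L1cam on the same strand and had 12113 and 11473 counts in WT and 12492 and 14076 in KO (0.15, SE 0.08, 0.276), a difference called without KO replicate 1 (0.0285). It was far more abundant than L1cam. Avpr2, the vasopressin receptor gene of the kidney, lies on the opposite strand inside the annotated span of L1cam. It had 65 and 8 counts in WT and 141 and 106 in KO (1.72, SE 0.75, 0.159) and was called with no filter (0.0387), with the replicate number as a block (0.00627) and without WT replicate 1 (0.000114). RP24-503A2.6, on the strand of Acrbp, shares 975 exon bases with it, the most of any overlapping gene, and had 12 and 1 counts in WT and 8 and 4 in KO, too few to be tested. An antisense transcript, RP23-130D15.6, shares 90 exon bases with Acrbp and had 111 and 35 counts in WT and 24 and 66 in KO. Slc22a14 overlaps Xylb with at most 1 count, and the genes that overlap Uaca and Gria2 had 0 counts throughout. HTSeq, named in the submitters' processing notes, can leave out reads that fall on 2 genes at once, and whether it did so here was not tested.

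**Figure D4:**
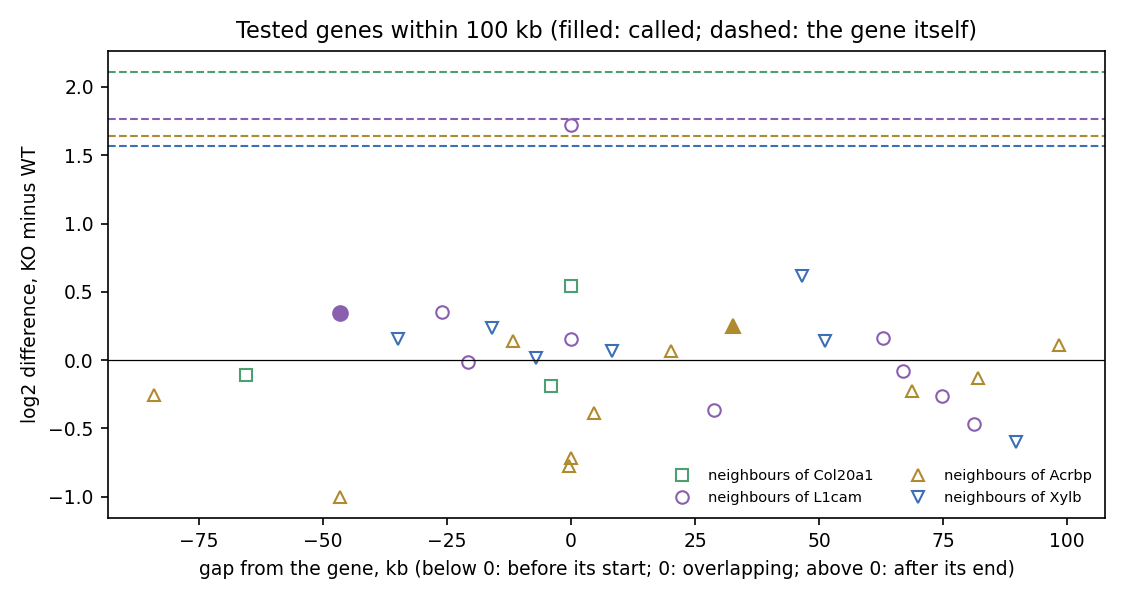
The log2 difference (KO minus WT) of each tested gene within 100 kb of Col20a1, L1cam, Acrbp or Xylb against its gap from that gene in kb, with called genes filled and the gene itself as a dashed line. Only Avpr2 (1.72), which overlaps L1cam, comes near the line of its gene (1.77).

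Markers of other cell types that express the 6 genes or that the sort could hold were summed in each library. The 15 neuron markers summed to 6.75 and 7.26 CPM in WT and 6.83 and 7.89 CPM in KO, and Snap25, Slc17a6, Gad1 and Elavl4 had 0 counts in every library. Their 2 most abundant genes per base, Tubb3 and Eno2, were not called. Fibroblast markers summed to 2.68 and 2.71 CPM in WT and 1.49 and 6.07 CPM in KO, with Col3a1, Dcn, Lum and Dpt at 0 throughout and Col1a1 at 41 and 20 counts in WT and 15 and 140 in KO. Male germ cell markers summed to 2.45 and 2.68 against 4.73 and 1.59 CPM, with Tnp1 and Acr at 0. Thymic epithelial markers summed to 64.3 and 76.6 against 61.9 and 51.6 CPM, mostly Cldn4 and Epcam, while Foxn1, Krt5, Krt14 and Cldn3 were at 0. For these lists 0 genes were called by edgeR, by DESeq2 or at an unadjusted p under 0.05. The sums of KO libraries overlapped or lay below those of WT in the fibroblast, germ cell and epithelial lists, and of the neuron list only KO replicate 2 lay above both WT libraries.

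Outside the double-positive list, the B cell and glial sums were higher in both KO libraries than in both WT libraries. The 9 B cell genes summed to 13.2 and 12.5 CPM in WT and 21.3 and 24.6 CPM in KO. Most of this was Cd79b, a subunit of the B cell receptor, with 369 and 278 counts in WT and 577 and 643 in KO (log2 difference 0.89, SE 0.24, edgeR adjusted p = 0.0239), but leaving out WT replicate 2 (0.0976) or KO replicate 2 (0.0744) ended that call. Cd79a, the partner subunit, had 24 and 59 counts in WT and 71 and 99 in KO. No member of the list was at 0 in all libraries. Of the 6 tested B cell genes, 5 had a log2 difference above 0 (83.3%, beside 50.2% of all tested genes), with a median of 0.94. In mean CPM 2 of them more than doubled, beside 6.17% of all tested genes. Macrophage and dendritic cell (19.1 to 23.1 CPM in WT, 16.4 to 25.2 in KO), endothelial (124 to 137 against 118 to 121) and erythroid sums (2.96 to 5.64 against 1.4 to 4.53) overlapped or were lower in KO. The glial sum (252 to 254 CPM in WT, 257 to 270 in KO) was almost all Mbp, which blood cells transcribe as well and which was not called. The part of these lists in the levels of the 6 genes was not tested. In sorted cells measured in bulk, a few cells with much of a transcript and many cells with little of it cannot be told apart.

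**Figure D5:**
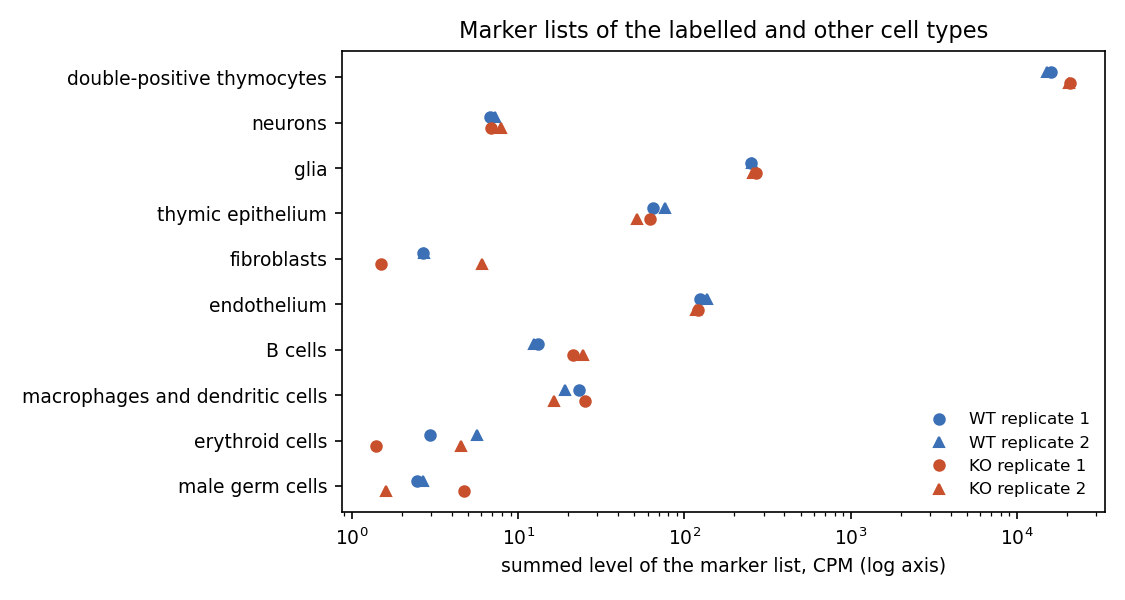
Summed level of each marker list in CPM on a log axis, 1 point per library (blue WT, red KO, circles replicate 1, triangles replicate 2). The double-positive list lies between 15268.5 and 20892 CPM, and the B cell list is higher in both KO libraries (21.3 and 24.6 CPM) than in WT (13.2 and 12.5 CPM).

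Only tested genes with an established symbol were ranked by likeness, which leaves out Gm-number, Rik and clone names. Of these, the genes whose pattern over the 4 libraries was most like the mean of the 6 were rare transcripts. By the smallest Euclidean distance between WT-centred log2 CPM profiles, they were n-R5s200 (distance 0.28), Fgf7 (0.37), Klhl10 (0.42), Tiam2 (0.45) and Akr1e1 (0.45). The distances of the 6 from their own mean ran from 0.53 (Acrbp) to 1.41 (Gria2). Fgf7, a growth factor gene of mesenchyme, had 14 and 12 counts in WT and 66 and 56 in KO, and Klhl10, a gene of spermatids, had 12 and 20 against 76 and 52. Akr1e1, a reductase gene, had 28 and 23 counts against 100 and 110. This is a description over 4 libraries that share the contrast used to choose the 6.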

How the data were processed

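The series holds 2 WT and 2 KO libraries of sorted CD4+CD8+ thymocytes, grouped by the labels. The authors deposited counts per gene for each library and a table of RPKM values. The submitters' processing notes list STAR 2.6.0a, HTSeq 0.6.1, FastQC 0.11.5, DESeq2 1.24.0, cutadapt and the build GRCm38 (mm10). For their settings, the strand and the annotation release, the sources used here give nothing. Each deposited RPKM equals the count over the listed gene length and the summed counts of that library (relative tolerance 1e-06). Of 53715 identifiers, 53620 were matched to GENCODE mouse release 21 for coordinates, and promoter windows are from RefSeq (GRCm38.p6), which held 5 of the 6 genes.

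CPM are counts over the library total. The test was edgeR's quasi-likelihood test on the counts (version 4.0.16, robust, TMM factors, filterByExpr, genotype only, R 4.3.3), two-sided, with Benjamini-Hochberg adjustment over 16588 genes, and the script was tested on simulated data. DESeq2 1.42.0 was an alternative. The members and the gene lists were chosen with earlier results of these data known, and the motifs after the windows had been seen. The text names the members, Srsf1, and up to 4 called genes and the 2 most abundant of each related list. Overlapping or called neighbours and leading markers are named too. Genes beside the doubling and the 5 most alike were taken only from genes with an established symbol. Further genes are said to be named after their values were seen, or are the closest relatives and defining markers. Alternatives were other scaling, filters, DESeq2, a replicate block, leaving out each library, and log2 of RPKM plus 0.5 or 0.1. Some genes of the lists are counted but not reported here by name. Splicing was not analysed here.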

Additional observations from a re-analysis of the deposited data

How the results depend on the processing

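The log2 differences of the 6 genes stayed above 0 under all 12 alternatives, between 1.08 (Xylb) and 3.44 (Gria2). Over all genes, leaving out 1 library gave 949 to 1213 higher and 1031 to 1484 lower calls. Over all tested genes, deviations from the group means correlated at -0.04 between libraries of the same replicate number. With 2 libraries per group this is a single value without an error, so pairing cannot be judged from it. A replicate block gave 1304 genes called higher and 1505 lower, 10 and 9 related genes, and 4 neighbours in place of 2. With the block, as with DESeq2, 1 glutamate receptor gene was called higher. In the xylulose and pentose phosphate list 1 gene was called lower with library size only, no filter, a filter of 1 CPM, DESeq2 or the replicate block, and 0 to 1 without 1 library. Leaving out 1 library gave 4 to 9 related genes called lower, 1 to 3 neighbours, 1 glutamate receptor gene lower, 0 to 1 higher and 0 to 2 lower in the L1 list, 0 to 1 higher and 1 to 3 lower among collagens, 0 to 1 in each direction for the apoptosome, and 0 to 1 lower for the REST repressor and its targets. The cause was not tested. Of the 214 related genes only 104 had counts enough to be tested, so at this depth nothing is said of the direction of the rest.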
